A study of Mus musculus with 7 samples.

Results

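The loci of 8 mesenchymal genes were followed through reprogramming, namely those of the transcription factors *Snai1*, *Snai2*, *Zeb1* and *Zeb2* and of the marker genes *Cdh2*, *Cdh11*, *Vim* and *Fn1*. Members are the called ATAC-seq peaks that overlap the body of one of these genes in GENCODE M21 (mm10) or the 20 kb on either side of it. Peaks of all libraries that touched or overlapped were merged into regions, which gave 72 regions at the 8 loci of 104346 in the whole series. ATAC-seq uses Tn5 transposase, which inserts adapters where DNA is exposed, and each of the 7 libraries was made from one population of cells, with no replicates. The day 0 library came from untreated Mouse Embryonic Fibroblasts (MEFs), and the libraries of days 1, 2, 3, 6 and 9 from MEFs kept in doxycycline (DOX) at 2 µg/mL for that time. MEFs carried the DOX-inducible allele Col1a1tm1(tetO-Pou5f1,-Klf4,-Sox2,-Myc)Hoch, from a B6;129S4 stock, and the allele Gt(ROSA)26Sortm1(rtTA*M2)Jae, from a B6.Cg stock, which supplies the rtTA activator, so that day 0 cells held the OKSM cassette without inducer. The Embryonic Stem Cells (ESCs) were untreated and are given as the line Bruce-4, although the genotype entered for them is that of the MEFs. By the paper's general reprogramming protocol, the serum was also raised when DOX was added, and ESC medium was given from around day 8. Medium and time in DOX are thus not separated between day 0 and the DOX days or between days 6 and 9. No sorting is given for these libraries, and a culture under reprogramming holds cells in different states. Fewer cells with an open site and a less open site in each cell cannot be told apart.

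Fibroblasts are mesenchymal cells, and the first days of OKSM-induced reprogramming include a mesenchymal to epithelial transition. *Snai1* and *Snai2* encode zinc-finger repressors of the Snail family, and *Zeb1* and *Zeb2* encode repressors with zinc-finger clusters and a homeodomain. All of them bind E-box sequences and repress epithelial genes such as *Cdh1*. *Cdh2* (N-cadherin) and *Cdh11* (OB-cadherin) encode adhesion molecules of mesenchymal cells, *Vim* encodes the intermediate filament protein vimentin, and *Fn1* encodes the matrix glycoprotein fibronectin.

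The libraries held between 27074 peaks (ESCs) and 61241 peaks (day 0), called by the authors after downsampling to one depth, and the files give no score, so that the reads behind a peak are unknown. Of 6 fibroblast markers fixed for this purpose (*Col1a1*, *Col1a2*, *Thy1*, *Pdgfrb*, *Twist2* and *Prrx1*), 5 had a peak within 1000 bp of the gene's 5′ end on day 0 and 0 in ESCs. Of 6 ESC markers (*Pou5f1*, *Nanog*, *Esrrb*, *Zfp42*, *Sall4* and *Tdgf1*), 1 had such a peak in ESCs, *Zfp42*, which had it in no other library. All 6 had at least 1 ESC peak in the gene body or within 20 kb. These wider windows held 15 peaks on day 0 and 13 in ESCs, with more in ESCs at 3 genes and fewer at 2. The wider count therefore does not tell ESCs from MEFs. At *Pou5f1* a start peak was called on days 0 and 9 and not in ESCs.

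Reference sequence (mm10) is printed for 5 of the peaks on which the results turn. These are the upstream part of the *Vim* and *Snai2* promoter peaks, which were called in all 7 libraries, a day 0 peak downstream of *Zeb2* and another downstream of *Fn1*, which were called in no later library, and a peak in intron 2 of *Cdh11*, which was called on every DOX day but neither on day 0 nor in ESCs and was picked after its values were seen. Each is at most 300 bp long, is free of annotated exons and is written 5′ to 3′ on the strand of its gene. The *Vim* and *Snai2* stretches were not covered in full by the peaks of every library. Capitals mark the letters of any of 5 motifs searched on both strands, TGANTCA (AP-1), GGAATG (TEAD), CAGGTG (the E-box of Snail and Zeb proteins), TGCAAAT (part of the Oct4 octamer) and GGGNGTG (Klf). A match is a description of the sequence and not a bound site.
Vim upstream, chr2:13573461-13573760, plus strand: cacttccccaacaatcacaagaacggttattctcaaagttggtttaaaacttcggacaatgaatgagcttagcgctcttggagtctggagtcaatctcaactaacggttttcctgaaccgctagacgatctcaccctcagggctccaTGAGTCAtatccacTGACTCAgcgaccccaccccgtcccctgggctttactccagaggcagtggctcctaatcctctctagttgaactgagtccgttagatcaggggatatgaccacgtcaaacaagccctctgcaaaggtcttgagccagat
Snai2 upstream, chr16:14705399-14705698, plus strand: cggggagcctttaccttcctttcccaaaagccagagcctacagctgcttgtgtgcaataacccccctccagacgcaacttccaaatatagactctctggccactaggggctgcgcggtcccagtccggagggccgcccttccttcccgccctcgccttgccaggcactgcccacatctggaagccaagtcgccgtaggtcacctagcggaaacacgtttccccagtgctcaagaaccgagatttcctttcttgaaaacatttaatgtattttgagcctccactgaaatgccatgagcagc
Zeb2 downstream, day 0 alone, chr2:44969314-44969613, minus strand: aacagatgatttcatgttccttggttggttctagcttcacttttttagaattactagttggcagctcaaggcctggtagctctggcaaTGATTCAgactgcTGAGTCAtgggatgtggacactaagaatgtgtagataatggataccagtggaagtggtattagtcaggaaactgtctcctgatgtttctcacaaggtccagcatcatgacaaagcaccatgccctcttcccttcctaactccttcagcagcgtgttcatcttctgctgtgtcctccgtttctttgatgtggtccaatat
Fn1 downstream, day 0 alone, chr1:71568022-71568321, minus strand: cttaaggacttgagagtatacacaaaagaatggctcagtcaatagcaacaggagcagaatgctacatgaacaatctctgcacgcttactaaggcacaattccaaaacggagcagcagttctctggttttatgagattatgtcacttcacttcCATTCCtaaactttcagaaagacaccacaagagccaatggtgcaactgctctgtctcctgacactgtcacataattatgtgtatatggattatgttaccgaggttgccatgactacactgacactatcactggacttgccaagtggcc
Cdh11 intron 2, days 1 to 9, chr8:102691383-102691682, minus strand: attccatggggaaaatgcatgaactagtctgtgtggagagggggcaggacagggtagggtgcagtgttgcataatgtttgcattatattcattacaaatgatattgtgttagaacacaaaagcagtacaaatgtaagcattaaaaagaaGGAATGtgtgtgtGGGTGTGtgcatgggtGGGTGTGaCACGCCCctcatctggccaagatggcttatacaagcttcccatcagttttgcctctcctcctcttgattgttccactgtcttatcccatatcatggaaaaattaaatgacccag
The *Vim* stretch holds a pair of AP-1 matches, and so does the day 0 stretch downstream of *Zeb2*. The *Fn1* stretch holds 1 TEAD match, the *Cdh11* stretch holds 1 TEAD match followed by 3 Klf matches, and the *Snai2* stretch holds none of the 5 motifs. Further stretches of day 0 peaks without an ESC peak were searched and are not printed. Those downstream of *Snai1* and of *Vim* hold none of the 5 motifs, and that in intron 1 of *Cdh11* holds 1 TEAD match.

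The 8 loci held 41 peaks in MEFs, then 35, 18, 32, 24 and 16 after 1, 2, 3, 6 and 9 days of DOX, and 15 in ESCs. The counts of days 2 and 9 were below those of the neighbouring DOX days, as were the peak totals of these libraries. The share of a library's peaks that lay at the 8 loci was 0.0669% in MEFs (exact 95% interval 0.0480 to 0.0908), between 0.0485% (day 9, 0.0277 to 0.0787) and 0.0766% (day 1, 0.0533 to 0.106) with DOX, and 0.0554% in ESCs (0.0310 to 0.0914). These intervals cover counting error only and all overlap. When the 27074 widest peaks of each library were used, so that all libraries held the same number, the loci held 19 peaks in MEFs, then 23, 15, 19, 17 and 16 with DOX, and 15 in ESCs. With 1 library per time-point no test between libraries can be made.

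**Figure D1:**
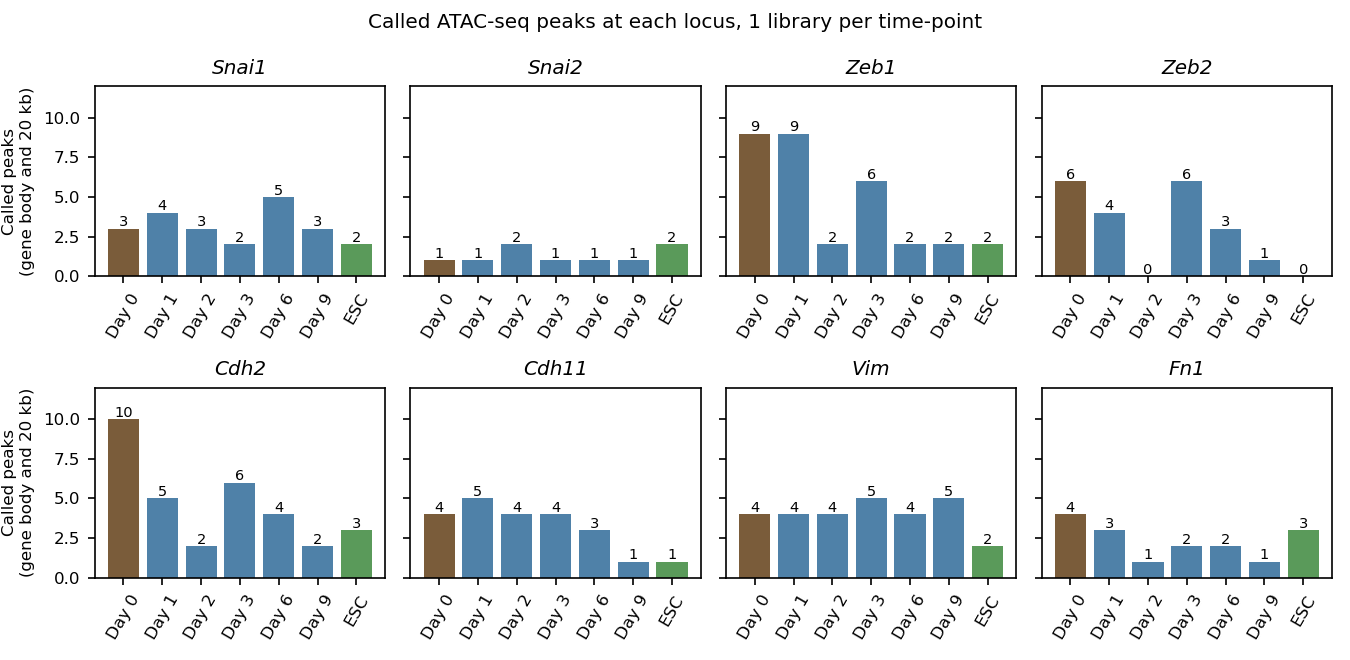
Number of called peaks (vertical axis) in the gene body and the 20 kb on either side at each of the 8 loci, with 1 bar per library and the count above it (brown, day 0; blue, DOX days; green, ESCs). *Zeb1* falls from 9 peaks on days 0 and 1 to 2 in ESCs and *Cdh2* from 10 to 3, whereas *Snai2* holds 1 or 2 in every library.

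The counts are given by locus. *Cdh2* (chr18:16588877-16809246, minus strand, 220 kb) had 10 peaks on day 0, then 5, 2, 6, 4 and 2 on days 1, 2, 3, 6 and 9 and 3 in ESCs. *Zeb1* (chr18:5591860-5775467, plus strand, 184 kb) had 9 peaks on day 0, then 9, 2, 6, 2 and 2 on days 1, 2, 3, 6 and 9 and 2 in ESCs. *Zeb2* (chr2:44983632-45117395, minus strand, 134 kb) had 6 peaks on day 0, then 4, 0, 6, 3 and 1 on days 1, 2, 3, 6 and 9 and 0 in ESCs, and was the only one of the 8 loci with no peak in ESCs. *Cdh11* (chr8:102632095-102785642, minus strand, 154 kb) had 4 peaks on day 0, then 5, 4, 4, 3 and 1 on days 1, 2, 3, 6 and 9 and 1 in ESCs. *Fn1* (chr1:71585520-71653200, minus strand, 67.7 kb) had 4 peaks on day 0, then 3, 1, 2, 2 and 1 on days 1, 2, 3, 6 and 9 and 3 in ESCs.

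*Vim* (chr2:13573927-13582826, plus strand, 8.90 kb) had 4 or 5 peaks in each MEF-derived library and 2 in ESCs, *Snai1* (chr2:167538195-167542814, plus strand, 4.62 kb) had between 2 and 5, and *Snai2* (chr16:14705852-14709385, plus strand, 3.53 kb) had 1 or 2. In ESCs 7 of the 8 loci had fewer peaks than on day 0, and among all protein-coding genes 59.0% had fewer. With DOX the loci with fewer peaks than on day 0 numbered 3, 4, 4, 5 and 5 of 8 after 1, 2, 3, 6 and 9 days, against 43.8, 54.9, 40.8, 42.5 and 54.1% of protein-coding genes. Genes without a day 0 peak are counted in these shares and cannot have fewer. Each of the 8 loci had a day 0 peak, so the shares over all genes are not a matched comparison.

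**Figure D2:**
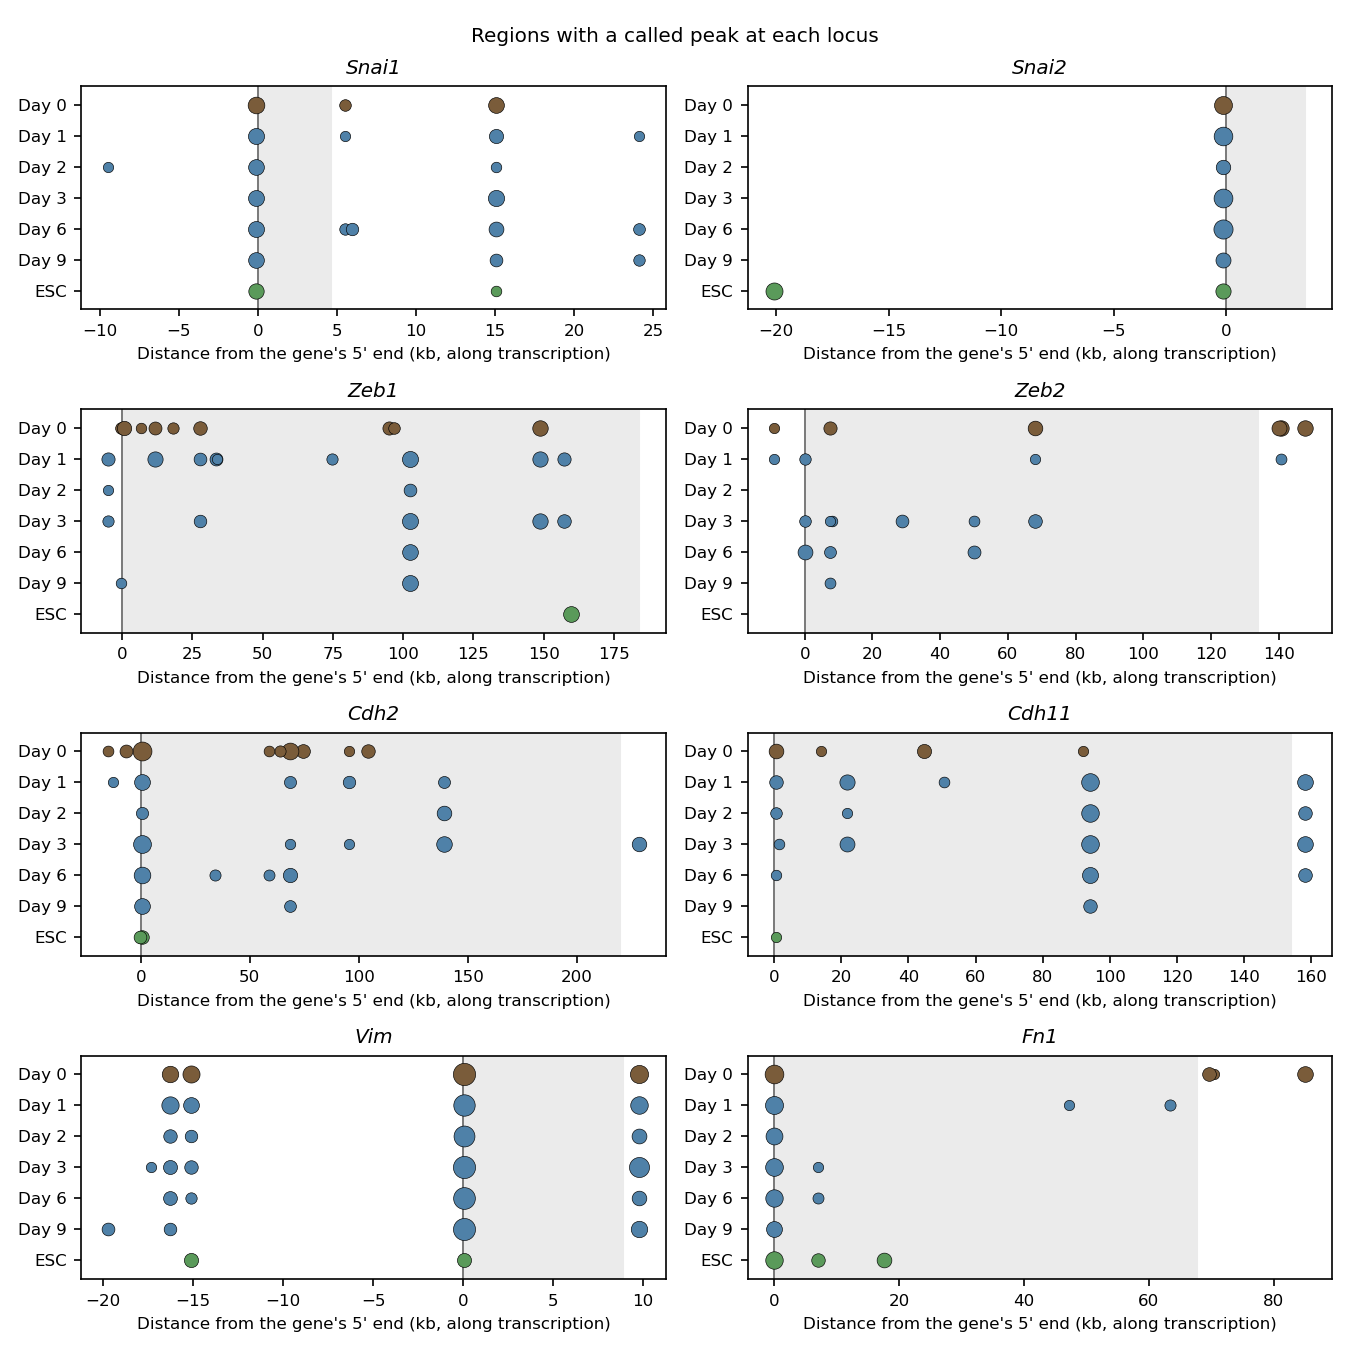
Regions with a called peak at each locus by distance from the gene's 5′ end in kb along the direction of transcription (horizontal axis) and library (rows). Point area grows with the called width, grey shading is the gene body and the vertical line is the 5′ end. Columns of points at the 5′ ends of *Snai1*, *Snai2*, *Cdh2*, *Vim* and *Fn1* run through all 7 libraries, and the column in *Cdh11* inside the gene runs from day 1 to day 9 alone.

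At most of these genes the start had a peak throughout. A peak within 1000 bp of the 5′ end was present in all 7 libraries at 5 of the 8 genes, *Snai1*, *Snai2*, *Cdh2*, *Vim* and *Fn1*, and 38.5% of the 21951 protein-coding genes had one in all 7. Such a peak was present at 7 of the 8 genes in MEFs (54.5% of all protein-coding genes). With DOX the number was 7, 6, 6, 7 and 6 after 1, 2, 3, 6 and 9 days, against 50.7, 46.9, 51.4, 52.6 and 48.8%, and it was 6 in ESCs, against 46.0%. Of the 7 genes with one in MEFs, 6 had one in ESCs, against 79.3% of the protein-coding genes with one in MEFs. All 7 libraries had one at 5 of these 7 genes, a share close to that of all protein-coding genes with one in MEFs (8462 of 11972). Among the repressors, both Snail genes had a start peak in every library and both Zeb genes had none in ESCs.

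*Snai1* had 1 peak over its start in each library, which measured 674 bp on day 0, then 620, 588, 606, 613 and 586 bp on days 1, 2, 3, 6 and 9 and 557 bp in ESCs. The widths stayed close together, and the ESC peak kept 82.6% of the day 0 width. The region (chr2:167537754-167538442) covers exon 1 with its UTR. A further region at *Snai1* with a peak in all 7 libraries (chr2:167552929-167553584) lies 15061 bp from the 5′ end, over the start of the non-coding gene *Gm11476*. Its called width was 592 bp on day 0 and 216 bp in ESCs (36.5%).

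*Snai2* was covered at its start by 792 bp of peak on day 0, then 870, 485, 885, 919 and 529 bp on days 1, 2, 3, 6 and 9 and 546 bp in ESCs (chr16:14705237-14706173). The values of days 2 and 9 and of ESCs were low and those of days 1, 3 and 6 high. The peaks of day 2 began at 14705545 and that of day 9 at 14705564, inside the *Snai2* stretch shown above. The upstream part of that stretch thus had no peak on these days. No other region of the *Snai2* window had a peak in any MEF-derived library. An ESC peak of 708 bp, called in ESCs alone, lay at the edge of the window, 20097 bp upstream (chr16:14685402-14686109).

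*Zeb1* had 2 peaks near its start on day 0, one of 285 bp just upstream (chr18:5591458-5591742) and one of 479 bp in intron 1 (chr18:5592327-5592805). Neither was called on days 1, 2, 3 or 6 or in ESCs, and a peak of 213 bp was called again at the upstream site on day 9. The upstream region also covers the start of *Gm2238*, a gene model on the opposite strand. *Zeb2* had no peak at its 5′ end on day 0, then 267 bp on day 1, none on day 2, 277 bp on day 3, 515 bp on day 6, and none on day 9 or in ESCs. *Zeb2* is annotated with 17 start positions of protein-coding transcripts, and a region over 2 of these, 7335 bp inside the gene (chr2:45109765-45110355), had a peak of 389 bp on day 0, then 200, 297 and 232 bp on days 3, 6 and 9. When any of its start positions was allowed, *Zeb2* had a start peak on days 0, 1, 3, 6 and 9 and still none on day 2 or in ESCs.

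Among the marker genes, *Vim* had the widest start peak of the 8 genes on each MEF-derived day and a narrower one in ESCs. It measured 1270 bp on day 0, then 1171, 1114, 1258, 1209 and 1246 bp on days 1, 2, 3, 6 and 9 and 452 bp in ESCs (chr2:13573297-13574602). The ESC peak was 35.6% as wide as the day 0 peak, while over the 9655 regions near protein-coding genes with a peak in all 7 libraries the median was 76.9% (quartiles 56.3 and 90.9). The median of the 6 such regions at the 8 loci was 57.5%. The further *Snai1* region was at 36.5% and the *Cdh2* start region at 46.1%. The start regions of *Snai2*, *Snai1* and *Fn1* were at 68.9, 82.6 and 85.6%. The *Vim* ESC peak ran from 13573678 to 13574129. The AP-1 pair of the *Vim* stretch shown above, 313 and 299 bp upstream of the 5′ end, lay inside the peaks of all 6 MEF-derived libraries and outside the ESC peak, which began 50 bp farther on.

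*Fn1* had a start peak of 875 bp on day 0, then 800, 693, 769, 742 and 598 bp on days 1, 2, 3, 6 and 9 and 749 bp in ESCs (chr1:71652812-71653686), so that the ESC value lay within the range of the DOX days. The antisense gene *Apol7d* starts in the same region. *Cdh2* was covered by 893 bp within 1000 bp of its 5′ end on day 0, then 594, 316, 779, 670 and 589 bp on days 1, 2, 3, 6 and 9 and 764 bp in ESCs. Of the ESC value, 352 bp came from a peak just upstream of the gene (chr18:16809356-16809707) that no other library had. The *Cdh2* start region called in all 7 libraries (chr18:16808065-16809288) held 893 bp of peak on day 0 and 412 bp in ESCs. *Cdh11* had a start peak of 502 bp on day 0, then 412, 277 and 209 bp on days 1, 2 and 6 and 200 bp in ESCs, with none on days 3 and 9 (chr8:102784907-102785408). The width decreased at each DOX time-point that had a peak.

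**Figure D3:**
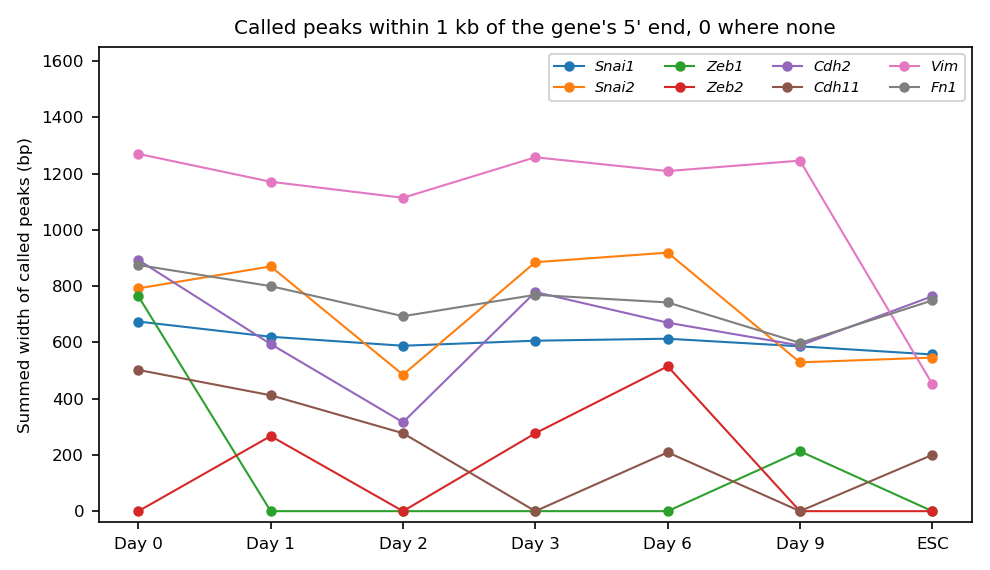
Summed width in bp (vertical axis) of the called peaks within 1000 bp of the 5′ end of each gene, by library, with 0 where no peak was called. *Vim* stays between 1114 and 1270 bp up to day 9 and reaches 452 bp in ESCs, and *Zeb1* and *Zeb2* are at 0 in ESCs.

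Next, the day of loss was assigned to the 40 regions of the 8 loci that had a day 0 peak, as the first time-point after the last one with a peak. Of these regions, 18 were last called on day 0 and were thus lost on day 1 (45.0%, interval 29.3 to 61.5), against 38.6% of the 44586 day 0 regions near protein-coding genes. Another 3 were lost on day 2 (7.50%, against 3.42%), 0 on day 3 (against 1.07%), 4 on day 6 (10.0%, against 5.96%) and 4 on day 9 (10.0%, against 11.4%). The remaining 11 had a peak on day 9 (27.5%, against 39.5%). The loss by day 9 was 72.5% (56.1 to 85.4), against 60.5% near all protein-coding genes, and the background lies inside the interval. ESCs do not enter this measure. Of the 29 regions lost by day 9, 2 had a peak in ESCs, the *Cdh11* start region and a *Vim* region 15105 bp upstream. Near all protein-coding genes 1164 of the 26967 lost regions had one. Counted library by library, without regard to later peaks, 21 of the 40 had no peak after 1 day of DOX (52.5%, against 50.9%), 30 after 2 days (75.0%, against 60.5%), 25 after 3 days (62.5%, against 50.2%), 26 after 6 days (65.0%, against 51.5%) and 32 in ESCs (80.0%, against 73.6%). The background share lay inside the counting interval of the members in each of the 6 libraries. When only the 27074 widest peaks per library were used, 19 day 0 regions remained, and 52.6% of these were lost by day 9, against 39.8% near all protein-coding genes under the same setting. In a further setting a later peak had to overlap at least 50% of the day 0 peak and of itself. The share of the 41 day 0 peaks still called was then 34.1% on day 1 (against 34.5%) and 34.1% on day 3 (against 35.5%). It was 14.6% on day 2 (against 26.4%), 22.0% on day 6 (against 35.0%) and 19.5% on day 9 (against 28.0%). In ESCs it was 9.76% (against 17.5%). No intervals were computed under this setting.

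The days of loss are given by gene. At *Fn1* and *Cdh11*, 3 of 4 day 0 regions were lost on day 1, and the other was the start region. The 3 at *Fn1* lay downstream of the gene and measured 583, 424 and 200 bp on day 0, and the widest holds the *Fn1* stretch shown above. The 3 at *Cdh11* lay in introns 1 and 2 and measured 458, 200 and 200 bp. At *Cdh2* 5 of 9 regions were lost on day 1, 1 on day 6 and 1 on day 9, and the 3 widest of the 5 measured 427 and 408 bp (intron 2) and 365 bp (7015 bp upstream). At *Zeb1* the numbers were 5 of 9, 1 and 2 on days 1, 2 and 6. The 3 widest of the 5 lay in intron 1 and measured 479, 385 and 275 bp. The 2 *Zeb1* regions lost on day 6, in introns 1 and 2, had peaks of 412 and 566 bp on day 0, 354 and 553 bp on day 1, none on day 2, and 342 and 558 bp on day 3. At *Zeb2* 2 of 6 were lost on day 1, 2 on day 2 and 1 on day 6. The 2 lost on day 1 lay downstream of *Zeb2*, and the wider of them, of 568 bp, holds the stretch with the AP-1 pair, while the other measured 527 bp.

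Of the 8 day 0 regions of *Vim*, *Snai1* and *Snai2*, 0 were lost before day 9, and 6 had a peak on day 9. These 3 genes were put together after their values were seen, and 3 of the 8 regions are their start regions. Near all protein-coding genes 39.5% of the day 0 regions had a peak on day 9, and 81.3% of those at gene starts. At *Vim* the start region, a region 16308 bp upstream and a region 9786 bp from the 5′ end, just downstream of the gene, were called in all 6 MEF-derived libraries. The upstream one measured 656 bp on day 0, then 733, 407, 449, 433 and 345 bp on days 1, 2, 3, 6 and 9, and the downstream one 817, 754, 513, 1012, 497 and 652 bp. Neither was called in ESCs. The other *Vim* region, 15105 bp upstream, measured 711 bp on day 0, narrowed to 262 bp on day 6, was absent on day 9 and measured 461 bp in ESCs.

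**Figure D4:**
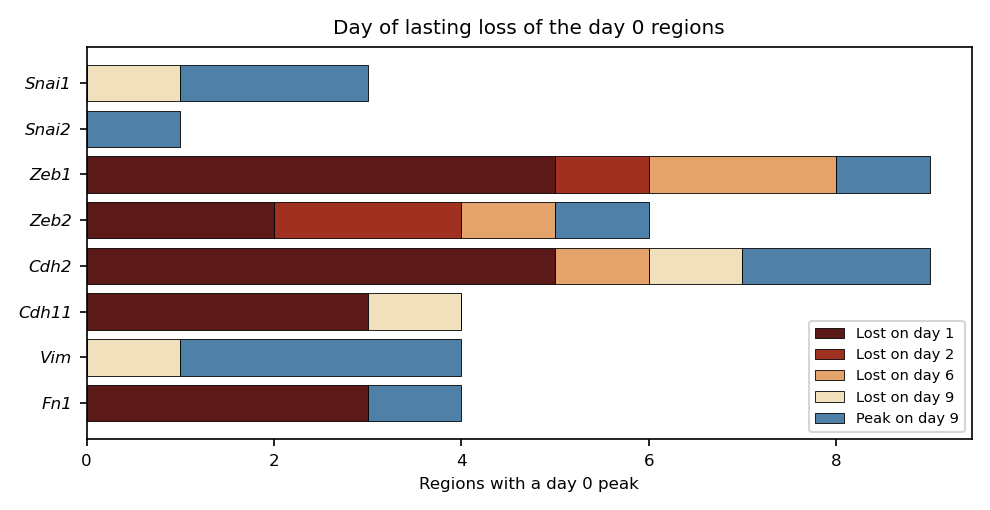
Number of regions with a day 0 peak at each locus (horizontal axis) divided by day of loss, meaning the first time-point after the last peak. Dark bars (lost on day 1) make up 5 of 9 regions at *Zeb1* and *Cdh2* and 3 of 4 at *Cdh11* and *Fn1*, and are missing at *Snai1*, *Snai2* and *Vim*.

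A loss was not always continuous. Of the 40 day 0 regions, 10 were missing on at least 1 DOX day and called again on a later one, 3 each at *Zeb1* and *Cdh2*, 2 at *Zeb2* and 1 each at *Snai1* and *Cdh11*. Near all protein-coding genes 22.9% of the day 0 regions were called again in this way. The count is by merged region. At the *Cdh2* region lost on day 6 (chr18:16713453-16713982) the day 3 peak did not overlap the day 0 peak. Only the day 1 peak, which overlapped both, joined them. In intron 2 of *Cdh2* a region of 683 bp on day 0 (chr18:16740664-16741346) measured 310 bp on day 1, had no peak on day 2, and measured 207, 473 and 290 bp on days 3, 6 and 9, without a peak in ESCs. At the 8 loci 22 regions were called on day 1 as well as on day 3, and 7 of these were not called on day 2 (31.8%, interval 13.9 to 54.9), against 22.4% near all protein-coding genes. The day 2 library also had fewer peaks in all, 33174 against 45709 on day 1 and 48087 on day 3, and its part in these gaps was not tested.

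Position went with the fate of the day 0 regions. Of the 8 day 0 regions within 1000 bp of the start of a protein-coding gene, those without a peak numbered 2, 2, 3, 2 and 2 after 1, 2, 3, 6 and 9 days of DOX and 2 in ESCs. Of all such regions near protein-coding genes, 15.3, 21.4, 14.5, 13.0 and 18.7% had none after the same times and 27.0% in ESCs. Of the 8 start regions, 75.0% had a peak in ESCs (interval 34.9 to 96.8), including that of *Cdh11*, which had none on day 9. Of the 32 distal ones, those with a peak numbered 13 (40.6%, 23.7 to 59.4), 4 (12.5%, 3.51 to 29.0), 10 (31.2%, 16.1 to 50.0), 8 (25.0%, 11.5 to 43.4) and 5 (15.6%, 5.28 to 32.8) after 1, 2, 3, 6 and 9 days of DOX, and 2 in ESCs (6.25%, 0.766 to 20.8). Distal regions without a peak made up 59.4, 87.5, 68.8, 75.0, 84.4 and 93.8% in that order, against 63.3, 74.2, 62.6, 64.9, 75.0 and 89.9% near all protein-coding genes. By annotation, 16 of the 17 day 0 regions in introns were lost by day 9 and 6 of the 7 over exons were kept. The 6 are start regions, those at the 5′ ends of *Snai1*, *Snai2*, *Cdh2*, *Vim* and *Fn1* and the one over internal starts of *Zeb2*, so these counts largely repeat the division by gene starts. Counts by intron and exon were not made over all genes. Near all protein-coding genes 75.0% of distal day 0 regions were lost by day 9, and 81.3% of those at gene starts were kept. The 2 distal regions with an ESC peak were the one over the start of *Gm11476* and the *Vim* region 15105 bp upstream.

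**Figure D5:**
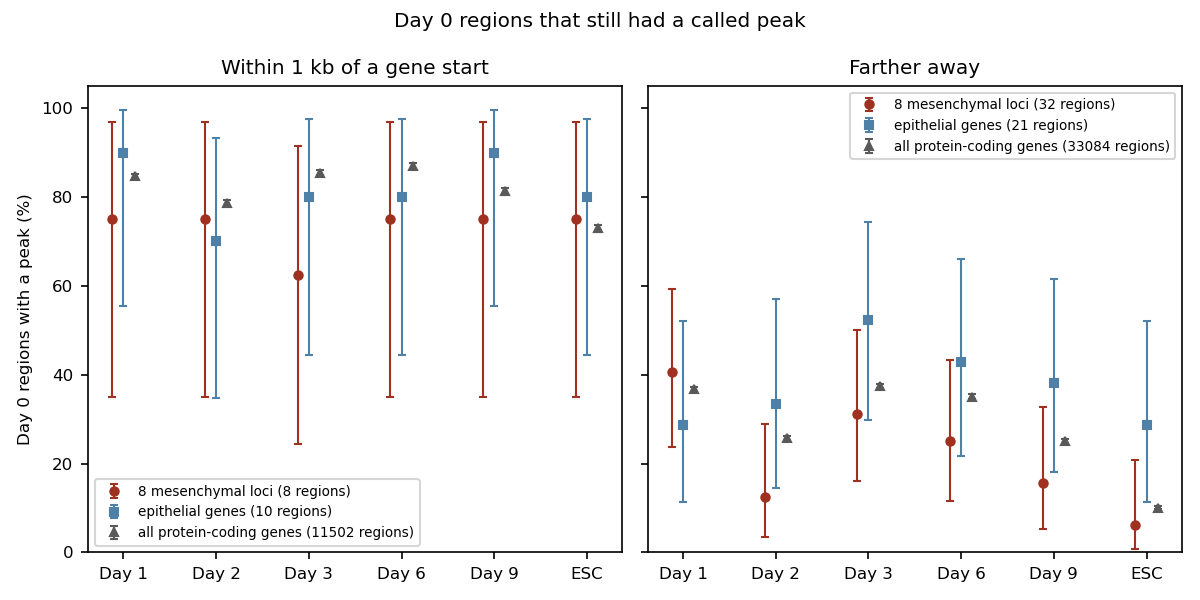
Percentage of day 0 regions (vertical axis) that had a called peak in each later library, for regions within 1000 bp of a protein-coding gene start (left) and for the others (right), with exact 95% intervals that cover counting error only. The 32 distal regions of the mesenchymal loci (red) lie at 40.6% on day 1 and 6.25% in ESCs, and their intervals include the values of all protein-coding genes (grey). Blue points are the epithelial genes.

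The regions that were lost were narrower on day 0 than those that were kept. The 29 regions lost by day 9 had a median called width of 385 bp on day 0 (from 200 to 711 bp), and the 11 with a peak on day 9 had one of 683 bp (from 285 to 1270 bp). The same order holds near all protein-coding genes, with medians of 273 and 627 bp. The median of the lost regions was higher at the 8 loci than near all protein-coding genes. Width is the only measure of strength that the peak lists give.

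Some peaks seen with DOX were absent in MEFs. Of the 72 regions, 32 had no day 0 peak, against 41.7% of the regions near protein-coding genes. Of these, 8 had a peak in at least 3 of the 5 DOX libraries, as had 23.1% of the regions without a day 0 peak near protein-coding genes, and 16 were called in a single DOX library and nowhere else, against 40.3%. *Cdh11* held 3 of the 8, *Zeb1* 2, and *Snai1*, *Zeb2* and *Cdh2* 1 each. In intron 2 of *Cdh11* (chr8:102691135-102691915), 94117 bp from the 5′ end, the peak measured 764, 756, 766, 614 and 411 bp on days 1, 2, 3, 6 and 9, and the day 0 and ESC libraries had none. This is the *Cdh11* stretch shown above, and its TEAD and Klf matches lay inside the peak on all 5 DOX days. In intron 1 of *Zeb1* (chr18:5694086-5694868), 102617 bp from the 5′ end, the peak measured 619, 353, 617, 588 (in 2 peaks) and 609 bp on days 1, 2, 3, 6 and 9, again with none on day 0 or in ESCs. These 2 regions had a peak in all 5 DOX libraries and not in ESCs, and 6.53% of the regions without a day 0 peak near protein-coding genes had the same pattern.

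The other DOX regions of *Cdh11* were not called after day 6. The region downstream of the gene (chr8:102627085-102627692) measured 585, 415, 582 and 421 bp on days 1, 2, 3 and 6, and the one in intron 1 (chr8:102763639-102764199) 545, 200 and 523 bp on days 1, 2 and 3. At *Cdh2* a region of intron 2 that covers the start of a shorter coding transcript (chr18:16669979-16670571) had peaks of 301, 496 and 575 bp on days 1, 2 and 3 and none later. Upstream of *Zeb1* (chr18:5586635-5587076) the peaks measured 387, 200 and 258 bp on days 1, 2 and 3, with none later. The *Zeb2* region is the one at its 5′ end given above. The *Snai1* region (chr2:167562065-167562557) was called on days 1, 6 and 9, and its day 1 peak did not overlap its day 9 peak.

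Peaks called in ESCs alone numbered 5 of the 72 regions (6.94%), against 8.40% near all protein-coding genes. They were the *Snai2* and *Cdh2* regions given above, a pair of neighbouring regions in intron 3 of *Zeb1* of 213 and 591 bp, and a region in intron 12 of *Fn1* of 505 bp (chr1:71635319-71635823). *Fn1* also had a region in intron 5 with 200 bp of peak on day 3, 242 bp on day 6 and 409 bp in ESCs (chr1:71645979-71646454). Regions called on day 0 alone made up 25.0% (against 22.2%), those called in all 7 libraries 8.33% (against 12.6%) and those called from day 0 to day 9 but not in ESCs 2.78% (against 5.22%).

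The motif content of the regions was compared in the 300 bp about their middle. Matches farther out were not counted, such as the AP-1 pair of the *Vim* start region. The kept regions had the higher median day 0 width, so more of their sequence was left unsearched. How many matches this leaves out in kept and lost regions was not counted. Of the 29 regions lost by day 9, 12 held the AP-1 motif (41.4%), against 32.8% of the lost regions near all protein-coding genes, and of the 11 kept regions 2 held it (18.2%, against 13.9%). The TEAD motif was in 10 of the lost (34.5%, against 22.0%) and 2 of the kept regions (18.2%, against 16.3%). The Klf motif went the other way, with 5 of the lost (17.2%, against 21.0%) and 8 of the kept regions (72.7%, against 33.8%). These 8 include the start regions of *Snai1*, *Zeb1*, *Cdh2*, *Vim* and *Fn1*. Of the 11 kept regions 6 were at gene starts, and of the 29 lost regions 27 were distal. Fate and position are therefore not separated in these shares. The E-box of the Snail and Zeb repressors was in 2 of the lost (6.90%, against 12.9%) and 2 of the kept regions (18.2%, against 15.7%), and the octamer part in 3 (10.3%, against 4.49%) and 0 (against 3.39%). Over all regions near protein-coding genes the shares were 20.6% for AP-1, 20.3% for TEAD, 16.9% for the E-box, 6.06% for the octamer part and 28.3% for Klf. The numbers are small, regions of 1 locus are not independent, and no test was made.

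Other mesenchymal genes were taken as a list for comparison. Of 7 further transcription factors, *Twist1*, *Tcf3* and *Tcf4* had a start peak in all 7 libraries, *Twist2* up to day 6, *Snai3* in 4 libraries, *Foxc2* on day 0 alone and *Prrx1* in none. Their 40 day 0 regions were lost by day 9 in 21 cases (52.5%, interval 36.1 to 68.5). Of 10 surface, cytoskeleton and matrix genes, 7 had a start peak on day 0 and 2 in ESCs, *Tnc* and *Itgb1*, while *Acta2*, *Cd44* and *S100a4* had one in each MEF-derived library and not in ESCs. Their 49 day 0 regions were lost by day 9 in 31 cases (63.3%, 48.3 to 76.6). The intervals of both lists overlap that of the 8 loci (56.1 to 85.4), which does not decide whether the lists differ.

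The epithelial genes *Cdh1*, *Epcam*, *Krt8*, *Krt18*, *Krt19*, *Ocln*, *Cldn3*, *Cldn4*, *Cldn7*, *Esrp1*, *Grhl2*, *Ovol1* and *Dsp* were the comparison on the epithelial side. Of these 13 genes, 1 had a start peak in MEFs (*Dsp*), then 2, 3, 3, 4 and 3 after 1, 2, 3, 6 and 9 days of DOX, and 5 in ESCs. *Cdh1*, the E-cadherin gene repressed by Snail and Zeb proteins, had one in ESCs alone, while *Cldn3* had one from day 1 to ESCs. In ESCs 5 of the 13 epithelial loci and 7 of the 8 mesenchymal loci had fewer peaks than on day 0, against 59.0% of all protein-coding genes. *Epcam* and *Grhl2* had no day 0 peak and could not have fewer. The day 0 median was 3 peaks at the epithelial and 4 at the mesenchymal loci, so the starting counts differ. The 31 day 0 regions of the epithelial genes were lost by day 9 in 14 cases (45.2%, 27.3 to 64.0). This interval overlaps that of the mesenchymal loci, which does not decide whether the lists differ, and no test was made. The lists also differ in position. Of the epithelial day 0 regions at gene starts, 1 of 10 was lost by day 9, and of the mesenchymal ones 2 of 8. Distal regions were lost in 13 of 21 cases (61.9%, 38.4 to 81.9) and in 27 of 32 cases (84.4%, 67.2 to 94.7) in that order.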

How the data were processed

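The 7 ATAC-seq libraries were grouped by time-point from their titles, with 1 library each. The authors trimmed reads with Trimmomatic, mapped reads with Bowtie2 (mm10), took out duplicates by Picard, downsampled all libraries to a depth whose value is not given in the sources used here, and called peaks per library with MACS2 with 0.05 as the q-value limit. The deposited lists hold chromosome, start and end alone, so a site without a peak is one not detected at that depth. Positions are counted from 1 (mm10, GENCODE M21), and no peak of a chromosome ends beyond its length in GRCm38. The 5′ end of a gene is the upstream end of its annotated extent. Regions near protein-coding genes, used as background, lie in the gene body or within 20 kb. An overlap of 1 bp counted. Shares have exact (Clopper-Pearson) 95% intervals. Exons and introns are numbered in the protein-coding transcript with the largest genomic span. Overlaps were compared with those of BEDTools 2.31.1, and the scheme of patterns was tested on simulated peaks, using Python with scipy 1.17.1 and pysam 0.24.0. All 8 genes are named, with regions by pattern: at the start, in all 7 libraries, on day 0 alone (the 3 widest), from day 0 to day 9, in 3 or more DOX libraries without day 0, and in ESCs alone. The loci, lists and motifs were chosen with earlier results of these data known.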

Additional observations from a re-analysis of the deposited data

How the results depend on the processing

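Of 126 values under an alternative setting, 101 stayed within the counting interval or within 1.5 times, and 25 moved. Fewer peaks enter by construction with peaks at least 300 bp wide, with the 27074 widest peaks of each library and with the gene body alone, and more with 50 kb. With peaks at least 300 bp wide the 8 loci held 23 peaks on day 1, 11, 19 and 15 on days 2, 3 and 6, 20 regions had no day 0 peak, and 4 of these were in 3 or more DOX libraries. With the gene body alone there were 26 peaks on day 0, 10 on day 2 and 9 on day 9, 21 regions without a day 0 peak, 5 of them in 3 or more DOX libraries, and 3 regions in ESCs alone. With 50 kb on each side there were 29, 49, 39 and 28 peaks on days 2, 3, 6 and 9 and 26 in ESCs. With peaks within 300 bp merged, 3 regions were in ESCs alone. With the 27074 widest peaks of each library there were 19 peaks on day 0, 23 on day 1 and 19 on day 3, so that the decrease after day 0 was gone on these days. Of the 19 day 0 regions left, the shares called were 52.6% (day 2), 47.4% (day 9) and 42.1% (ESCs), with 52.6% lost by day 9. Near all protein-coding genes these shares were 60.2, 60.2 and 46.5%. When 50% of each of both peaks had to overlap, the share still called went from 25.0 to 14.6% (day 2), from 35.0 to 22.0% (day 6) and from 20.0 to 9.76% (ESCs), within the counting intervals but by over 1.5 times. The number of genes with a start peak stayed within 1.5 times under each of 4 alternatives in each library. No region lay near the start of another protein-coding gene, so leaving those out changed nothing. No paired analysis was possible because no group holds more than a single library.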
